A study of Arabidopsis thaliana with 8 samples.

Results

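Cytochrome P450 genes carry a systematic name made of CYP, a family number, a subfamily letter and a gene number. The genes described here are the Arabidopsis thaliana P450 genes with such a name, apart from the families that act in flavonoid, phenylpropanoid, glucosinolate, brassinosteroid, jasmonate and abscisic acid pathways and a few single camalexin, glucosinolate and coumarin genes. Of 240 genes with a P450 name in the RefSeq gene table, 36 were left out in this way and 204 remained, in 34 families. A probe read 196 of the 204, among 25433 genes read in all. A gene entered the test if, in at least 1 line, none of the 4 arrays read its brightest probe near background, which held for 127 of the 204 genes and 19227 of the 25433.

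The samples were whole seedlings, 6 days old, of tt8-3 and of its wild type, both in the Ws (Wassilewskija) background and grown on MS medium with sucrose. The tt8-3 line is a single loss-of-function allele of TT8, a basic helix-loop-helix factor of flavonoid gene control. Each line had 4 arrays of a 1-colour Agilent kind on 2 slides, and the design text was read as making the 2 that shared a slide technical replicates. They were averaged, so that on this reading 2 biological replicates stood against 2, and averaging by position is given beside it. The difference between the 2 wild-type arrays of a slide was correlated between the slides over all genes (r = 0.88), as was that of tt8-3 (r = 0.67). Arrays that shared a line and a slide had a consensus correlation of -0.21 (limma), so they were no more alike than arrays of a line on different slides. If position marks the biological replicate instead, the spread behind the main calls is technical. The comparison asks which P450 genes differ in level when TT8 is lost. On each slide the wild type lay in the earlier positions and tt8-3 in the later ones, so array position and genotype cannot be told apart.

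P450 enzymes are membrane-bound haem monooxygenases that insert oxygen into small molecules, and most plant members sit in the endoplasmic reticulum and draw electrons from an NADPH-P450 reductase. Some act in primary routes such as sterol, gibberellin, cutin and suberin synthesis, where each gene is conserved across plants. Others, above all the CYP71, CYP705 and CYP81 families, have multiplied in tandem arrays in Arabidopsis and serve specialised metabolism of terpenes, indoles and fatty acid derivatives.

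Levels are log2 signals from which the 75th percentile for that array was subtracted, and changes are tt8-3 minus wild type on that scale. A gene passed when its limma p, adjusted by Benjamini-Hochberg over the 19227 genes, was under 0.05. Levels of different genes come from different probes and are not compared. Among 25 genes with a 2nd probe that met the filter, 6 had a probe of the opposite sign and 2 had one that differed by at least 1 from the tested probe, but none of the 7 called genes among them had a probe of the opposite sign. In whole seedlings, fewer cells of a type and less RNA per cell cannot be told apart, and the spread behind each p-value is that between slide averages, which may be technical.

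The label of the mutant was checked first. TT8 (AT4G09820) had levels of 4.19 to 4.40 on the wild-type arrays and -7.07 to -5.56 on the tt8-3 arrays, none of them well above background in tt8-3, so that it was at least 1520-fold lower (limma adjusted p = 0.00179). A single probe reads it, and its place relative to the lesion was not used here. Shoot markers (6 of 6 well above background on all 8 arrays) and root markers (4 of 6 on all 8) were present, while among the 4 listed pollen or flower genes AG and AP3 were above background on no array, EXO70C2 on 2 tt8-3 arrays and SPL8 on all 8. SPL8 was higher in tt8-3 by 1.26 (limma adjusted p = 0.00639). Among the 4 embryo or seed genes read, none was above background on any wild-type array. The seed storage gene CRA1 was above it on all 4 tt8-3 arrays, OLEO1 on 2, CRU3 on 1 and SESA1 on none. The 2 arrays of the wild type on a slide differed from each other in the same way on both slides. All 6 shoot markers were lower on the second wild-type array, with differences of -0.64 to -0.53, and 5 of 6 root markers were lower there, with differences of -1.57 to 0.34 over the list. Of the root markers, PYK10 was higher in tt8-3 (0.71), and NRT2.1 (-2.05), PHT1;1 (-0.64) and PRP3 (-1.26) were lower. The summed level of the root markers was 4.32 to 5.22 over wild-type arrays and 5.06 to 5.43 over tt8-3 arrays. PYK10, at 3.88 to 5.30 over the 8 arrays, made up most of that sum, and no other root marker was above 2.26. The sum therefore mainly follows PYK10 and not the list. The summed level of the shoot markers was 9.91 to 11.07 and 9.71 to 10.61. The part of these differences in the results below was not tested.

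More of the tested P450 genes were lower than higher in tt8-3. Of the 127, 16 were higher and 31 lower, or 37.0% together, where 26.7% of all genes tested passed in either direction. The higher calls made up 12.6% of the P450 genes (15.7% of all genes), and the lower ones 24.4% (10.9% of all genes). The family and list counts below rest on few genes each and are to be read beside these shares over all genes. The median change was -0.05, against 0.01 over all genes, and the middle range from the lower to the upper quartile ran from -0.43 to 0.22. A change of at least 1 in size was seen in 24 P450 genes, 18.9% of them, against 7.88% of all genes. The P450 genes left out by the rule had 5 higher and 4 lower of 28, or 32.1%. Arrays of both lines did not overlap for 14 higher and 29 lower P450 genes, 33.9% of them, against 33.1% of all genes (19.7% higher and 13.5% lower). Of the 127, 116 were above background on all 8 arrays and 11 passed only through tt8-3, with none passing only through the wild type. Over all genes, 806 passed only through tt8-3 and 119 only through the wild type.

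The count of calls depended on which arrays were averaged. When averages were taken by position, over both slides, 3 P450 genes were higher and 5 lower, or 6.30%, against 3.12% of all genes (2.74% higher and 0.380% lower). A fit with slide as a block term called 37 P450 genes higher and 48 lower, or 66.9%, against 64.5% of all genes (33.8% higher and 30.7% lower), and all 47 calls were kept. Over the 8 single arrays, 31 of the 47 were kept with slide as a block and 32 with the label number as a block. Leaving out any 1 wild-type array gave 8 to 10 higher and 17 to 18 lower. Normexp background correction with an offset of 50 left no P450 gene past the limma threshold, with 14 higher and 12 lower at an unadjusted p under 0.05, and 10 of the 47 called genes, all of them lower before, then changed sign (median of all genes 0.12). The share of all genes that passed under normexp was not counted, so this absence of P450 calls has none beside it. With quantile normalization after normexp, a setting chosen after seeing the data, all 47 kept their sign and 36 their call.

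**Figure D1:**
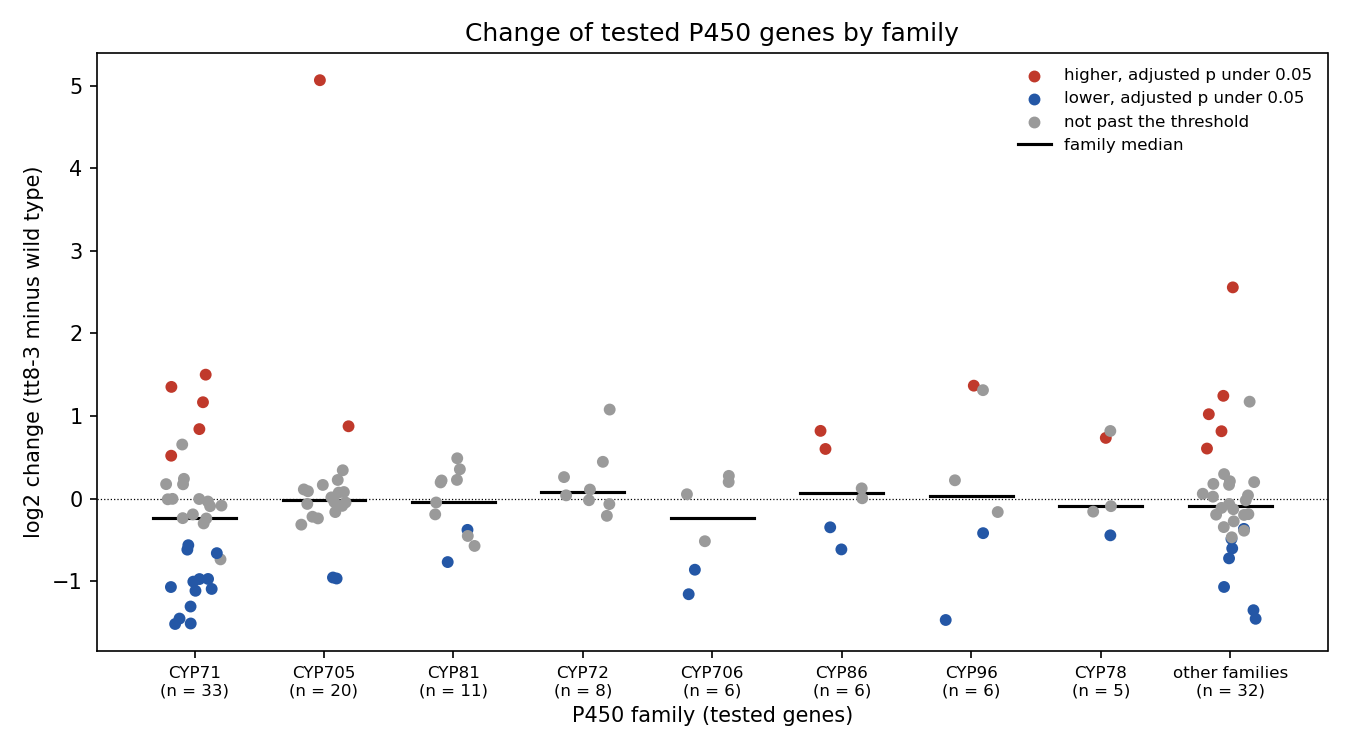
Log2 change (tt8-3 minus wild type, y axis) of each tested P450 gene, by family (x axis), with the families of fewer than 5 tested genes together. Points are genes, colours give the limma call and bars the family medians, which lie between -0.24 and 0.07, with CYP705A27 standing above all others at 5.07.

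Of the 47 genes, 7 passed under both averagings, 2 of them higher and 5 lower in tt8-3.

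CYP705A27 (AT1G50520), of a family with many triterpene-modifying enzymes, had the largest change among the probes tested. Its levels were -8.06, -8.73, -8.12 and -8.23 on wild-type arrays 1 to 4 and -3.57, -2.90, -3.41 and -3.0 on tt8-3 arrays 1 to 4. All 4 tt8-3 arrays were well above background and no wild-type array was. The transcript was at least 6.85-fold higher in tt8-3 by the lowest signal well above background on each wild-type array, with a measured change of 5.07 (SE 0.11, limma adjusted p = 0.000622, and 0.00308 by position). All 12 fits that left out an array or a slide average kept this call, with changes of 4.90 to 5.24. Normexp gave a change of 1.71 (adjusted p = 0.0912), and 1.23 (adjusted p = 0.00386) with quantile normalization after it.

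CYP71A20 (AT4G13310) was the other gene higher under both averagings. Its wild-type levels were -5.30, -5.38, -5.19 and -5.62, and its tt8-3 levels -4.11, -3.92, -4.12 and -3.93. The groups did not overlap, and the change was 1.35 (SE 0.085, limma adjusted p = 0.0041, and 0.0372 by position). Its neighbour in the family numbering, CYP71A19, had a change of -0.01 and did not pass.

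Among the genes lower under both averagings, CYP89A2 (AT1G64900) had levels of 1.55, 1.61, 1.4 and 1.42 in the wild type and 0.17, 0.03, 0.05 and -0.09 in tt8-3. Every tt8-3 array lay more than 1 below every wild-type array, and the change was -1.46 (SE 0.11, limma adjusted p = 0.00554, and 0.0237 by position). Its relative CYP89A5 (AT1G64950) had a change of the opposite sign. CYP89A5 had levels of -3.23, -3.14, -2.62 and -2.13 in the wild type and -1.56, -1.74, -1.55 and -1.58 in tt8-3. Its change of 1.17 passed by position (limma adjusted p = 0.0493) and not by slide (0.0532). The wild-type levels were lower on slide 1 than on slide 2, and the lines did not overlap. Another probe of CYP89A5, which the test did not use, had -7.99, -8.59, -7.95 and -8.10 in the wild type and -0.93, -0.94, -0.94 and -0.94 in tt8-3. It was well above background on no wild-type array and on all 4 tt8-3 arrays, at least 33.3-fold higher in tt8-3, with a measured change of 7.22, so the 2 probes of this gene disagree on the size of its change.

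CYP706A5 (AT4G12310) had levels of 0.91, 0.80, 0.86 and 0.64 in the wild type and -0.25, -0.37, -0.40 and -0.41 in tt8-3. It fell by 1.16 (SE 0.095, limma adjusted p = 0.00645, and 0.0386 by position), with no overlap. CYP71B11 (AT5G25120) had levels of -1.53, -1.43, -1.81 and -1.90 against -2.40, -2.76, -2.96 and -3.01. Both lines were lower on slide 2 than on slide 1 for this gene, and the lines did not overlap. Its change was -1.12 (SE 0.21, limma adjusted p = 0.0285, and 0.0439 by position), and the call was lost without the wild-type average of slide 1 (change -0.93, adjusted p = 0.0577).

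CYP71A21 (AT3G48320) had levels of -4.58, -4.13, -4.23 and -4.01 in the wild type and -5.96, -6.05, -5.68 and -5.32 in tt8-3, a change of -1.51 (SE 0.21, limma adjusted p = 0.0156, and 0.0332 by position). CYP96A9 (AT4G39480), a relative of the midchain alkane hydroxylase of cuticular wax, had levels of -3.78, -4.12, -3.85 and -4.28 against -5.58, -5.21, -5.56 and -5.56, a change of -1.47 (SE 0.11, limma adjusted p = 0.00542, and 0.0399 by position). Lines did not overlap for either gene, but under normexp the changes became 0.08 and 0.08, which lie -0.04 and -0.04 from the median of all genes.

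**Figure D2:**
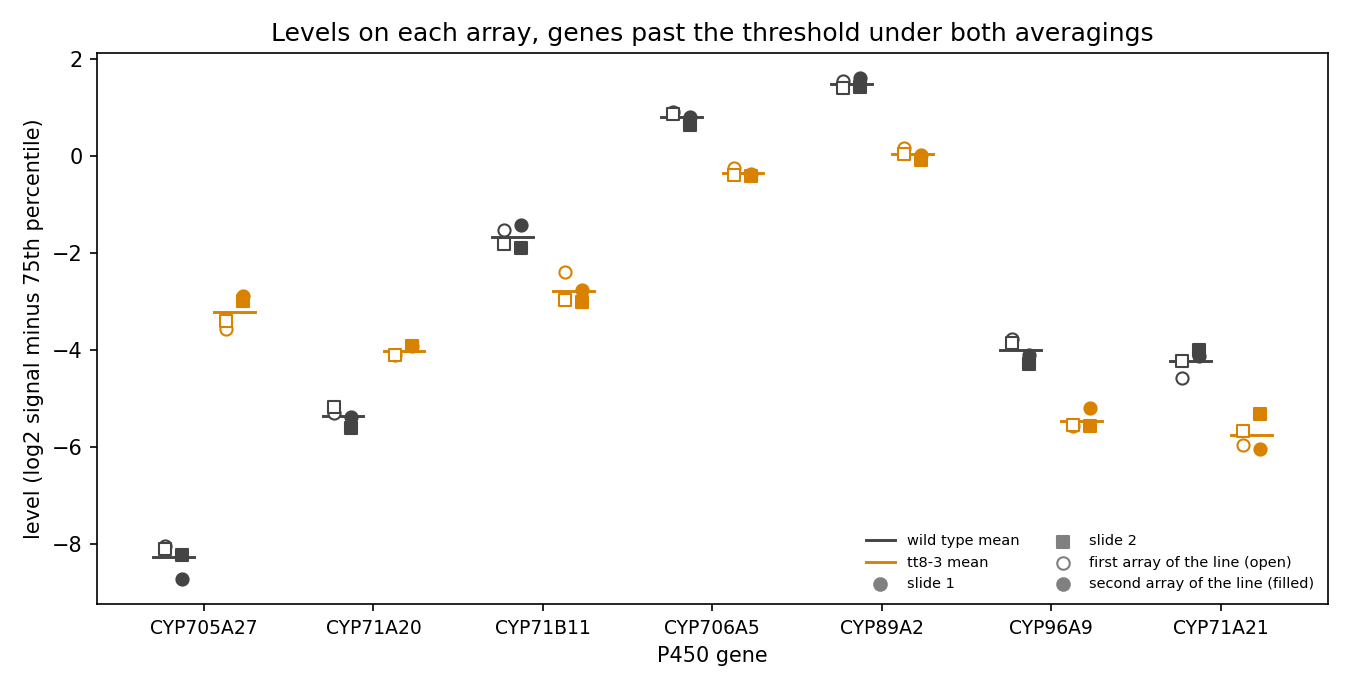
Level of the P450 genes past the limma threshold under both averagings (y axis, log2 signal relative to each array's 75th percentile; x axis, gene) on each of the 8 arrays. Points are arrays, with shape for the slide and fill for the position, and bars are line means; CYP705A27 and CYP71A20 are higher in tt8-3 and the other 5 lower, with no overlap between the lines, though CYP71A21 and CYP96A9 change sign under normexp.

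Of the 51 genes of CYP71, the largest family, 33 were tested, and 5 were higher and 13 lower, or 54.5% called, against 26.7% of all genes. The family median was -0.24, with -0.21 on slide 1 and -0.24 on slide 2, but 0.18 under normexp (0.06 above the median of all genes). In subfamily CYP71A 1 of 11 tested genes was higher and 7 lower (median -1.01), and 5 of these 7 (CYP71A13, CYP71A15, CYP71A21, CYP71A23 and CYP71A28) changed sign under normexp. Subfamily CYP71B had 4 higher and 6 lower of 22 (median -0.14). By position, 1 gene of the family was higher and 2 lower.

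CYP71A12 (AT2G30750) and CYP71A13 (AT2G30770) encode close paralogues that dehydrate indole-3-acetaldoxime on the way to the phytoalexin camalexin. CYP71A12 had levels of -3.08, -1.48, -3.27 and -1.58 in the wild type and -3.31, -3.49, -3.27 and -3.64 in tt8-3. CYP71A13 had -5.17, -3.47, -5.62 and -3.67 against -5.66, -5.83, -5.89 and -6.36. In both genes the second wild-type array of each slide (arrays 2 and 4) was high, and the first lay near the tt8-3 arrays. The changes were -1.07 (SE 0.098, limma adjusted p = 0.00782) and -1.45 (SE 0.19, adjusted p = 0.0143). Over first arrays alone they were -0.11 and -0.38, and over second arrays -2.03 and -2.53. By position neither passed (adjusted p = 0.326 and 0.252). Without wild-type array 2 the call of CYP71A12 was lost (change -0.67), without array 4 both were (-0.65 and -0.97), and under normexp CYP71A13 changed sign (0.12). The probes of such close copies may share RNA, and their sequences were not used here.

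CYP71A23 (AT3G48300), the largest fall, followed the same pattern. Its levels were -5.15, -3.19, -5.36 and -3.61 in the wild type and -5.67, -5.62, -5.73 and -6.37 in tt8-3. The change was -1.52 (SE 0.20, limma adjusted p = 0.0138, and 0.24 by position), or -0.44 over first arrays and -2.59 over second arrays. The call was lost without wild-type array 2 (-1.03) or 4 (-1.08), and the sign turned under normexp (0.02). CYP71A15 (AT5G24950) differed in having its high wild-type value on the first array of slide 2. It had -4.00, -4.00, -3.41 and -4.49 in the wild type and -5.58, -4.75, -5.27 and -4.69 in tt8-3, a change of -1.1 (limma adjusted p = 0.00841, and 0.148 by position), lost without wild-type array 3 (-0.83) and turned to 0.07 under normexp.

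CYP71B12 (AT5G25130), which lies next to CYP71B11, had levels of -0.29, -0.63, -0.33 and -0.69 in the wild type and -1.54, -2.05, -1.62 and -1.97 in tt8-3. Its change of -1.31 (SE 0.084, limma adjusted p = 0.00423, and 0.0664 by position) held in all 12 leave-one-out fits. CYP71B6 (AT2G24180), which oxidises indole-3-acetonitrile in defence metabolism, had levels of 2.36, 2.70, 2.17 and 2.65 against 1.97, 1.81, 1.88 and 1.75. It fell by 0.62 (SE 0.096, limma adjusted p = 0.0193), without overlap, and kept the call in 6 of the 12 fits, losing it without wild-type array 1 (-0.71), 2 (-0.53) or 4 (-0.50) among single arrays. Of the indole and defence list, which also holds CYP71A12, CYP71A13, CYP71B23 and CYP76C2, 8 of 11 genes were tested, and 1 was higher and 4 lower. None of the 8 passed by position, where 2 were lower at an unadjusted limma p under 0.05.

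The higher CYP71 genes were, besides CYP71A20, members of CYP71B, many of which lie side by side. CYP71B23 (AT3G26210) had levels of -4.51, -2.27, -4.06 and -1.74 in the wild type and -1.98, -2.07, -1.84 and -2.02 in tt8-3. The first wild-type arrays were low and the second lay with the tt8-3 arrays, so the lines overlapped. Its change of 1.17 (SE 0.19, limma adjusted p = 0.0219, and 0.411 by position) was 2.37 over first arrays and -0.04 over second arrays. CYP71B24 (AT3G26230) had levels of -6.55, -5.09, -6.78 and -5.41 against -4.04, -4.70, -4.20 and -4.89, with 2 of 4 wild-type arrays well above background. Its change was 1.5 (SE 0.14, limma adjusted p = 0.00792, and 0.193 by position), or 2.54 over first and 0.46 over second arrays, and the call was lost without wild-type array 1 (1.14). The call of CYP71B23 was lost without wild-type array 1 (0.60), 2 (1.73) or 3 (0.59).

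CYP71B36 (AT3G26320) had -4.36, -4.40, -3.63 and -4.48 in the wild type and -3.26, -3.55, -3.32 and -3.38 in tt8-3. The lines did not overlap, though wild-type array 3 came close to tt8-3. The change was 0.84 (SE 0.14, limma adjusted p = 0.0225, and 0.12 by position), and the call was lost without wild-type array 4 (0.63) or without the wild-type average of slide 1 (0.68).

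In CYP705, 20 of 25 genes were tested, with 2 higher and 2 lower and a median of -0.01, which was 0.33 under normexp (0.21 above the median of all genes), -0.29 over first arrays and 0.31 over second arrays. CYP705A19 (AT3G20100) had levels of -2.06, -2.31, -2.22 and -2.33 in the wild type and -3.22, -2.86, -3.41 and -3.31 in tt8-3. It fell by 0.97 (SE 0.14, limma adjusted p = 0.0172, and 0.0683 by position), without overlap, and kept its call in all 12 leave-one-out fits. CYP705A1 (AT4G15330) cleaves the triterpene arabidiol, which releases a volatile homoterpene. It had -2.57, -3.47, -2.52 and -3.73 in the wild type and -2.30, -1.93, -2.47 and -2.09 in tt8-3. Here the second wild-type arrays were the low ones, and the change of 0.87 (SE 0.11, limma adjusted p = 0.0123, and 0.269 by position) was 0.16 over first and 1.59 over second arrays. Without wild-type array 2 or 4 the change was 0.65 and 0.57, and without the wild-type average of slide 2 it was 0.82, and the call was lost in each of these fits.

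A list of 17 genes was drawn up for triterpene tailoring at the thalianol, marneral, tirucalla and arabidiol clusters. Whether 2 of them, CYP71A19 and CYP71A20, lie in any of these clusters was not checked. Of the 17, 8 were tested, and CYP705A1 and CYP71A20 were higher and none lower (1 lower at an unadjusted limma p under 0.05). Over all genes tested, 26.7% were called, so the called share of this list is near that of all genes. CYP705A5 (AT5G47990), the thalianol pathway desaturase, was above background on no wild-type array and on all 4 tt8-3 arrays, yet its levels of -6.27 to -5.41 and -5.86 to -5.52 overlapped. Its change of 0.16 (limma adjusted p = 0.332) did not pass and turned to -0.05 under quantile normalization. CYP705A4 (AT4G15380) had a change of -0.24 (adjusted p = 0.106), -0.62 over first and 0.13 over second arrays, and 0.09 under normexp. CYP708A2, the thalianol hydroxylase, and CYP71A16, which acts on marneral products, were each above background on 1 wild-type array and no tt8-3 array and were not tested. CYP708A3 (AT1G78490), of the same family, rose by 1.02 (SE 0.086, limma adjusted p = 0.00681). Its levels were -0.72, -1.63, -0.56 and -1.66 in the wild type and -0.17 to -0.07 in tt8-3, and the call was lost without wild-type array 4 (0.75).

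In terpenoid volatile oxidation, 4 of 7 listed genes were tested, with 1 higher and 2 lower and none past the threshold by position (2 lower unadjusted). CYP82G1 (AT3G25180), the homoterpene synthase of leaf volatiles induced by herbivory, had levels of -7.81, -6.75, -7.88 and -6.47 in the wild type and -5.86, -3.41, -6.19 and -3.22 in tt8-3. No wild-type array was well above background and all 4 tt8-3 arrays were. In tt8-3 the second array of each slide was higher than the first by more than 2, the widest such gap in that line among the tested P450 genes. The transcript was at least 2.50-fold higher, with a measured change of 2.56 (SE 0.093, limma adjusted p = 0.00143, and 0.217 by position). Without tt8-3 array 4 the change was 1.81 and the call was lost, and under normexp it was 0.95 (adjusted p = 0.188).

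CYP76C1 (AT2G45560) and CYP76C2 (AT2G45570), neighbours that oxidise linalool and related monoterpenols, both fell. CYP76C1 had levels of 2.86, 2.21, 2.71 and 2.00 in the wild type and 1.21, 1.20, 0.96 and 0.98 in tt8-3. CYP76C2 had 2.61, 2.30, 2.72 and 2.36 against 1.71, 1.11, 1.76 and 1.13. By the tested probes, all tt8-3 arrays lay below all wild-type arrays in both. The changes were -1.35 (SE 0.13, limma adjusted p = 0.00848) and -1.07 (SE 0.088, adjusted p = 0.00645), kept in all 12 leave-one-out fits each and close to -1.4 and -1.08 under normexp, but not past the threshold by position (0.0789 and 0.119). Another probe of CYP76C2, above background on all 8 arrays, had -1.25, -0.55, -1.30 and -0.89 in the wild type. In tt8-3 that probe had -0.69, -2.57, -1.02 and -2.54, a change of -0.70 with overlap. There tt8-3 was the higher line on first arrays and the lower on second arrays. The other probe of CYP76C1 gave -1.34. The third tested gene of the family, CYP76C6, had a change of -0.11 by the tested probe and 0.83 (SE 0.16) by its other probe, which was also above background on all 8 arrays. CYP706A3 (AT5G44620), a terpene oxidase of flowers, had -1.85, -2.45, -0.63 and -0.73 in the wild type and -2.06, -2.44, -0.41 and -0.54 in tt8-3, a change of 0.05 (adjusted p = 0.967). Slide 2 was the higher one in both lines, and the sign of this change turned under median scaling (-0.05).

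Fatty acid oxidation genes split. Of 16 genes listed for cutin, suberin and wax, 10 were tested, with 4 higher and 2 lower (median 0.19) and none past the threshold by position (2 higher unadjusted). CYP96A4 (AT5G52320) rose most of them. It had levels of -3.48, -4.33, -3.70 and -4.54 in the wild type and -2.75, -2.42, -2.94 and -2.49 in tt8-3, without overlap, a change of 1.37 (SE 0.12, limma adjusted p = 0.0072, and 0.115 by position) that was kept in all 12 leave-one-out fits.

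CYP86A4 (AT1G01600), a fatty acid hydroxylase of cutin, had levels of -1.21, -2.56, -1.31 and -3.03 in the wild type and -1.15, -1.01, -1.32 and -1.35 in tt8-3. CYP77A4 (AT5G04660), a fatty acid epoxygenase, had -3.25, -5.00, -3.51 and -5.17 against -3.37, -3.23, -3.63 and -3.44. In both, the first wild-type arrays matched tt8-3 and the second were lower by more than 1, so the lines overlapped. The changes of 0.82 (SE 0.16, limma adjusted p = 0.0296) and 0.81 (SE 0.14, adjusted p = 0.0226) were 0.03 and -0.12 over first arrays and 1.61 and 1.75 over second arrays. The calls held in 7 and 8 of the 12 leave-one-out fits, and without wild-type array 2 or 4 the changes were 0.48 and 0.39 for CYP86A4 and 0.38 and 0.40 for CYP77A4. Without wild-type array 3 both calls were also lost at larger changes (1.25 and 1.23), without the wild-type average of slide 2 they were lost at 0.68 and 0.71, and CYP86A4 also without the tt8-3 average of slide 1 (0.69). CYP86A8 (AT2G45970), the cutin hydroxylase known as LACERATA, had 1.88, 1.19, 1.78 and 0.98 in the wild type and 0.98, 0.91, 0.75 and 0.72 in tt8-3. It fell by 0.62 (SE 0.12, limma adjusted p = 0.0326, and 0.274 by position). The lines met at 0.98, and among single arrays the call was lost without wild-type array 1 (-0.45), 2 (-0.79) or 3 (-0.42). CYP86A1 (AT5G58860), the suberin hydroxylase of roots, had -0.95, -0.94, -1.11 and -1.08 in the wild type and -0.22, -0.39, -0.42 and -0.65 in tt8-3. It rose by 0.60 (limma adjusted p = 0.0355), without overlap, and its call was lost without any 1 wild-type array (0.59 to 0.61) or tt8-3 array 3 (0.54). The family CYP86 as a whole had 2 higher and 2 lower of 6 (median 0.06) and CYP96 had 1 higher and 2 lower of 6 (median 0.03, or -0.45 over first and 0.51 over second arrays).

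**Figure D3:**
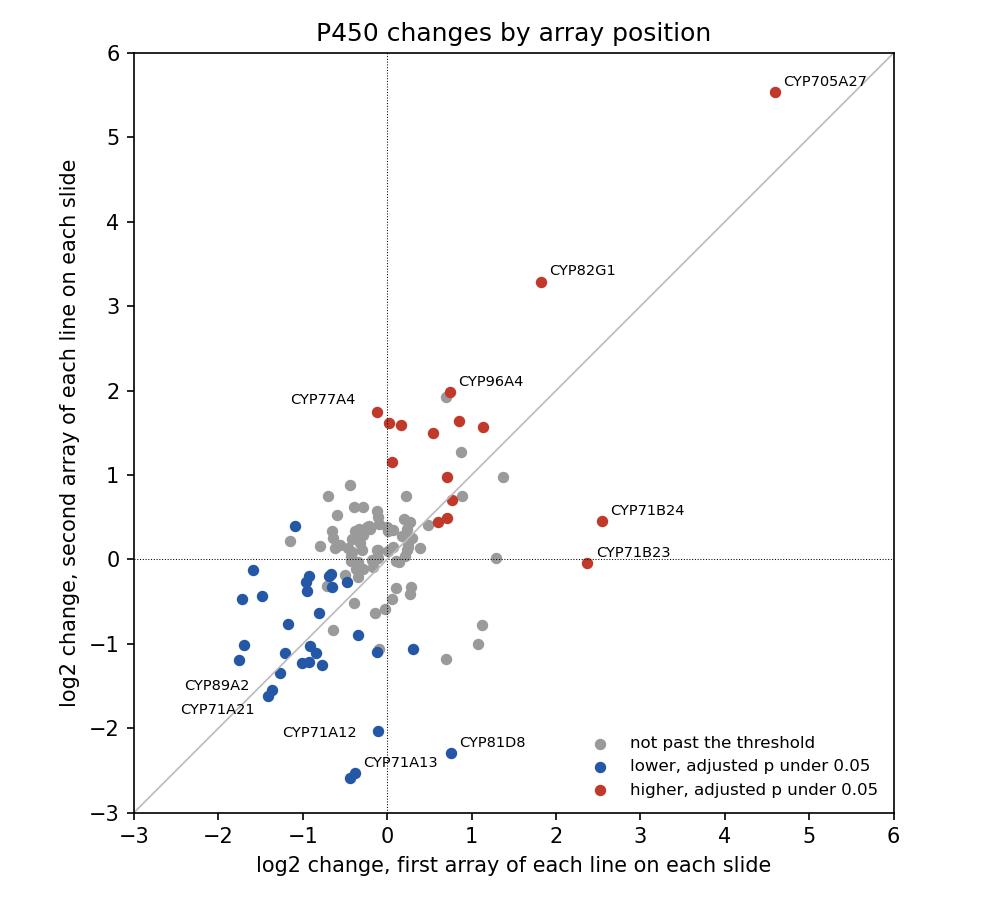
Log2 change of each tested P450 gene over the first array of each line on each slide (x axis) and over the second array (y axis), with the identity line in grey. Points are genes coloured by the limma call; 42 of the 47 called genes had the same sign on both axes, while CYP81D8 lay at 0.76 and -2.30 and CYP71B23 at 2.37 and -0.04.

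In CYP81, 11 of 16 genes were tested, with none higher and 2 lower by limma (0 higher and 3 lower unadjusted), or 18.2% called, against 26.7% of all genes. The family median was -0.05, which was 0.13 under normexp, 0.18 over first arrays and 0.25 over second arrays. CYP81D8 (AT4G37370), a gene induced by many xenobiotics, had levels of -0.48, 1.13, -0.65 and 1.12 in the wild type and 0.19, -1.11, 0.19 and -1.23 in tt8-3. The second array was the higher one in the wild type and the lower one in tt8-3, on both slides, and the lines overlapped. Its change of -0.77 (SE 0.089, limma adjusted p = 0.0114, and 0.563 by position) was 0.76 over first and -2.30 over second arrays, and the call held in 4 of 12 leave-one-out fits. Without wild-type arrays 1 to 4 in turn its change was -1.17, -0.37, -1.21 and -0.33, and without tt8-3 arrays 2, 3 and 4 it was -0.44, -1.13 and -0.41, each time past no threshold. The highest change in the family, 0.49 for CYP81K1, did not pass (adjusted p = 0.305), nor did the indole glucosinolate modifiers CYP81F1 (0.35), CYP81F3 (-0.05) and CYP81F4 (-0.19).

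Of the 11 genes listed as responsive to xenobiotics or oxylipins, all were tested, with 1 higher and 2 lower, a share near the 26.7% called over all genes. CYP74B2 (AT4G15440), the hydroperoxide lyase HPL1 of green leaf volatile synthesis, had levels of -0.45, -0.73, -0.46 and -0.71 in the wild type and 0.39, 0.96, 0.39 and 0.88 in tt8-3. Every tt8-3 array was above every wild-type array, and the change was 1.24 (SE 0.083, limma adjusted p = 0.0046, kept in all 12 leave-one-out fits, and 0.0773 by position). CYP710A1 (AT2G34500), a sterol desaturase, had -3.27, -2.80, -2.98 and -2.53 against -3.07, -3.88, -3.40 and -3.63. It fell by 0.60 (SE 0.13, limma adjusted p = 0.037), with overlap, and lost the call in 10 of 12 fits, among single arrays in all but those without wild-type array 1 or tt8-3 array 3. Without tt8-3 array 2 its change was -0.40. None of the 11 passed by position (2 higher and 0 lower unadjusted).

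No gene of CYP72 passed among 8 tested (limma, 1 higher and 0 lower at an unadjusted p under 0.05), and the family median was 0.07. The tested probe of CYP72A11 (AT3G14650) gave 0.04, but its other probe, also well above background on all 8 arrays, had -2.33, -2.42, -1.86 and -1.79 in the wild type and 0.0031, -0.15, 0.14 and 0.012 in tt8-3. That probe did not overlap between the lines and gave a change of 2.1 (SE 0.23), so the result for this gene depends on the probe. CYP72A13 (AT3G14660) came closest, with 2.14 to 2.41 in the wild type and 2.56 to 2.82 in tt8-3, no overlap and a change of 0.44 (SE 0.13, adjusted p = 0.0729). CYP72A9 (AT3G14630), a gibberellin hydroxylase, had -6.24, -6.99, -5.17 and -5.54 in the wild type and -5.68, -5.57, -3.98 and -4.41 in tt8-3. Both lines were higher on slide 2 by more than 1, and the change of 1.08 (SE 0.66) did not pass (adjusted p = 0.29). CYP72A10 (AT3G14640) had -2.83, -2.89, -1.63 and -1.32 against -2.91, -3.59, -1.43 and -1.57, a change of -0.21 (adjusted p = 0.86) that turned to 0.05 over first arrays and 0.04 under normexp.

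A difference between slides of at least 1 in the same direction in both lines was seen in 7 of the 127 P450 genes, or 5.51%, against 0.557% of all genes. These were CYP72A9, CYP72A10, CYP705A24, CYP706A3, CYP715A1, CYP71B38 and CYP81D11, chosen by this difference after their values were seen. All 7 were higher on slide 2 in both lines, and none passed the main test between lines. That fit has no slide term, so the slide gap entered its spread (SE 0.80 for CYP706A3) and made a pass unlikely. It cannot show whether these genes differ between the lines. In CYP706A3 slide 2 exceeded slide 1 by 1.47 in the wild type and 1.78 in tt8-3, and in CYP81D11, a jasmonate- and xenobiotic-induced gene, by 1.27 and 1.31.

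Of 6 tested CYP706 genes none was higher and 2 were lower (limma, 0 higher and 3 lower unadjusted), and the median of -0.23 was -0.02 over second arrays. CYP706A2 had the highest change, 0.27 (adjusted p = 0.203). CYP706A6 (AT4G12320), which follows CYP706A5 on the chromosome, had -1.41, -2.29, -1.43 and -2.30 in the wild type and -2.96, -2.37, -3.07 and -2.49 in tt8-3. It fell by 0.86 (SE 0.091, limma adjusted p = 0.00985), and its change was -1.60 over first and -0.13 over second arrays. The call was lost without wild-type array 1 (-0.64), wild-type array 3 (-0.65) or tt8-3 array 1 (-0.71).

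In the CYP78A family, whose members promote organ and seed growth, 5 of 6 genes were tested, with 1 higher and 1 lower (median -0.09, or 0.34 over second arrays). CYP78A7 (AT5G09970), which acts beside KLUH (CYP78A5) in organ initiation, had levels of -3.0, -2.18, -3.25 and -2.41 in the wild type and -2.23, -1.41, -2.49 and -1.78 in tt8-3. Its second arrays were the higher ones in both lines, and at each position tt8-3 was above the wild type. The change was 0.73 (SE 0.16, limma adjusted p = 0.0397, and 0.337 by position), kept in 4 of 12 fits. Among single arrays the call was lost without wild-type array 1 (0.53), 3 (0.52) or 4 (0.94) and without tt8-3 array 1 (0.94) or 4 (0.56). CYP78A8 (AT1G01190) had -0.09, -0.71, 0.04 and -0.67 against -0.69, -0.83, -0.74 and -0.95. It fell by 0.45 (SE 0.092, limma adjusted p = 0.0352), with changes of -0.69 over first and -0.20 over second arrays, and kept the call in 2 of 12 fits. Leaving out any 1 wild-type array ended it (-0.29, -0.60, -0.27 and -0.62), as did leaving out tt8-3 array 2 (-0.41) or 4 (-0.39). CYP78A9 (0.82, adjusted p = 0.34), CYP78A6 (-0.16, adjusted p = 0.333, and 0.34 over second arrays) and CYP78A5 (-0.09) did not pass.

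Hormone and sterol genes were taken as 2 lists, with genes tested singly and no test of a list. Of 9 listed genes of gibberellin, strigolactone and cytokinin metabolism, 8 were tested, with none higher and 1 lower (the same counts unadjusted). CYP735A1 (AT5G38450), a cytokinin hydroxylase that makes trans-zeatin forms, had levels of -3.87 to -3.68 in the wild type and -4.22 to -4.07 in tt8-3. It fell by 0.37 (SE 0.085, limma adjusted p = 0.045), without overlap, but kept the call only in the fit without tt8-3 array 2 (-0.41) and changed to 0.22 under normexp. The kaurenoic acid oxidases CYP88A3 (-0.28, adjusted p = 0.16) and CYP88A4 (-0.20, adjusted p = 0.199) and the strigolactone gene CYP711A1 (MAX1, 0.30, adjusted p = 0.16) did not pass, and another probe of CYP711A1 gave -0.13. CYP51G1 (AT1G11680), the sterol demethylase of the core sterol route, had 4.07, 3.89, 4.07 and 3.68 in the wild type and 3.45, 3.50, 3.38 and 3.42 in tt8-3. It fell by 0.49 (SE 0.094, limma adjusted p = 0.03), without overlap, and kept the call in 3 of 12 fits, losing it without any 1 wild-type array (-0.59 to -0.39) or tt8-3 array 1 (-0.48). In the sterol and carotenoid list, CYP51G1 and CYP710A1 were the 2 lower genes of 6 tested, none was higher (also unadjusted), and the carotenoid hydroxylases CYP97A3 (-0.19) and CYP97B3 (-0.20, but 0.04 over second arrays) did not pass.

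The 20 families with fewer than 5 tested genes had 5 higher and 7 lower of 32, or 37.5%, with a median of -0.09. The 77 genes that were not tested add no change of their own. Of these, 8 had no probe, 40 were above background on no array and 29 on some arrays. Among the last, 16 were above background on more tt8-3 than wild-type arrays and 8 on more wild-type arrays.

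Many of these genes stand side by side in the TAIR10.1 gene order. There were 13 runs of at least 3 neighbouring P450 genes, and the longest, CYP71B16 to CYP71B24, held 10 genes. Of 33 adjacent pairs with both genes tested, 4 had both genes lower, none had both higher and 1 had opposite calls. The 4 pairs, 12.1% of the 33 against 4.50% of 13889 adjacent gene pairs with a shared direction, were CYP76C1 with CYP76C2, CYP71A22 with CYP71A21, CYP706A5 with CYP706A6 and CYP71B11 with CYP71B12. In the pair of opposite calls CYP71B35 fell by 0.66 and CYP71B36 rose by 0.84. Close copies may share RNA at a probe, which was not tested. In the run of 10, of which 6 were tested, CYP71B19 was lower (-0.98) and CYP71B23 and CYP71B24 higher. In the run CYP72A7 to CYP72A13 none of 6 tested genes passed the main limma fit.

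**Figure D4:**
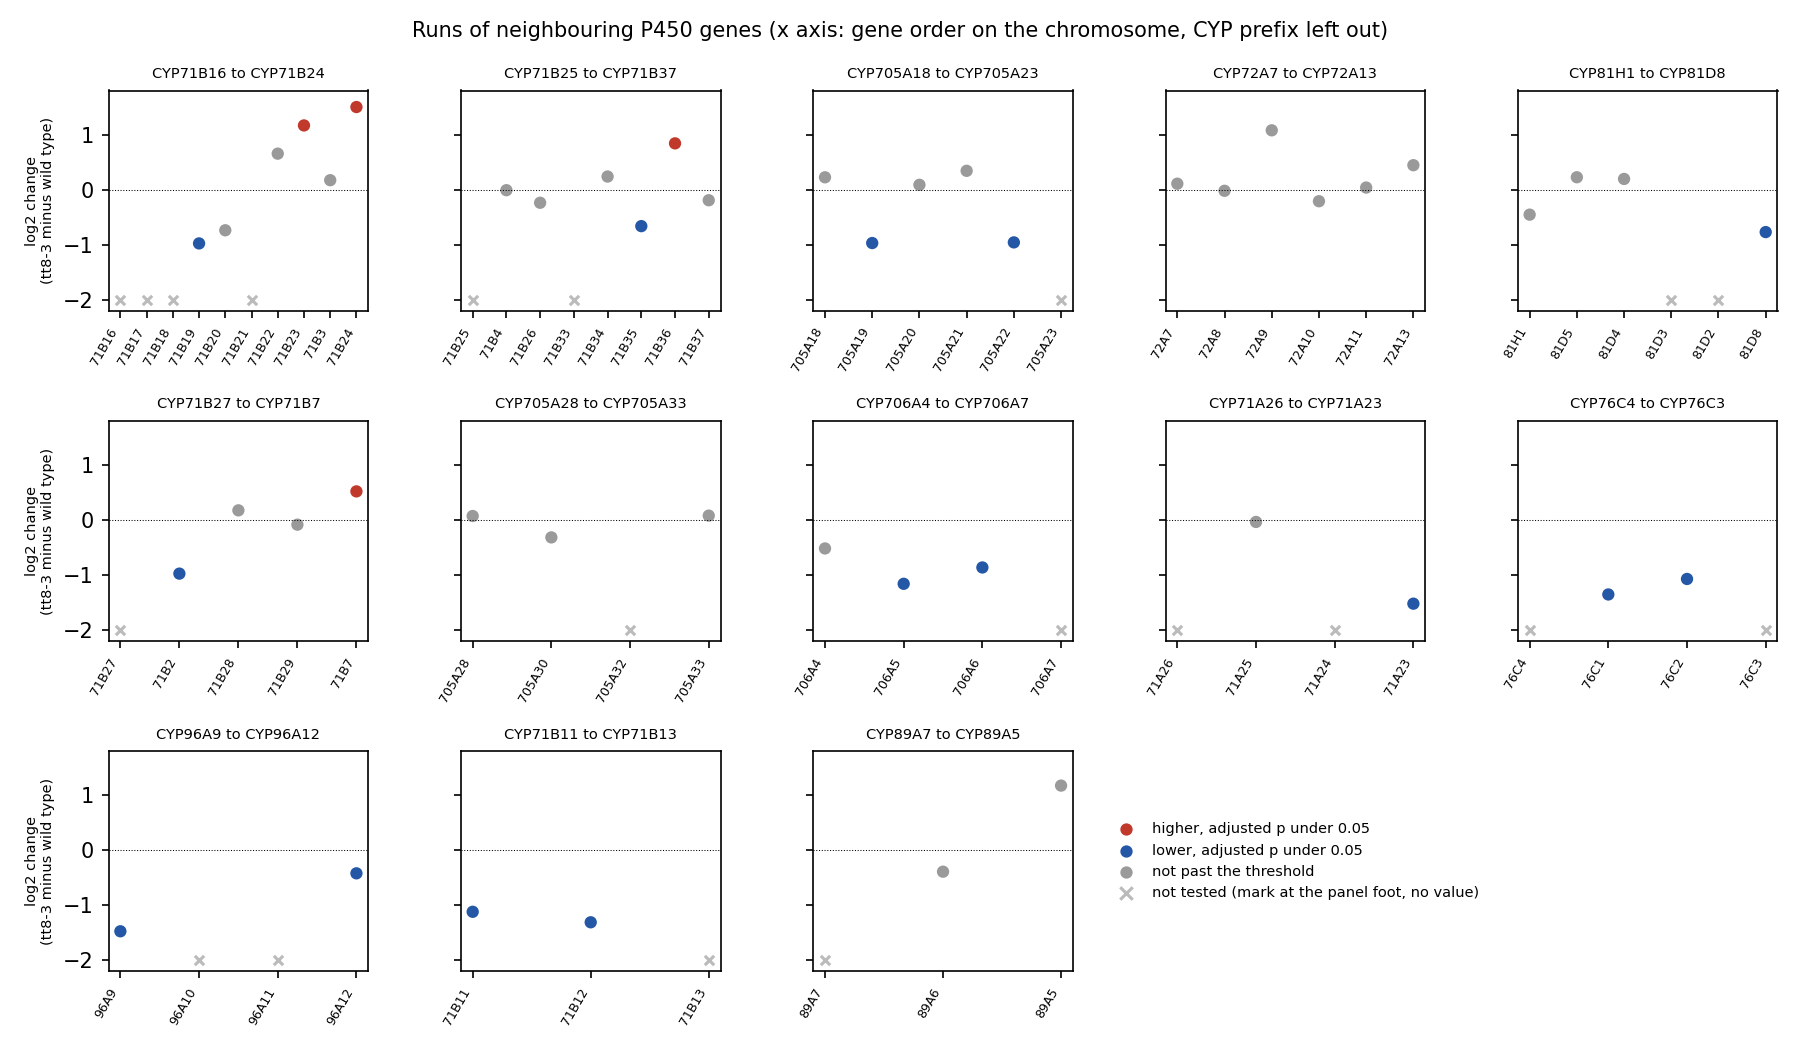
Log2 change (y axis, tt8-3 minus wild type) of the genes in the 13 runs of at least 3 neighbouring P450 genes, in their order on the chromosome (x axis). Points are tested genes coloured by the limma call and crosses at the foot are genes not tested; calls of both directions stand within 3 of the 4 runs of CYP71B genes, and CYP76C1 and CYP76C2 fall together.

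The spread between arrays of a line was not even. The range over the 4 arrays had a median of 0.70 in the wild type and 0.40 in tt8-3 over the tested P450 genes. The second wild-type array differed from the first by at least 1 in 22 of the 127 genes, or 17.3%, against 6.28% of all genes, and in tt8-3 in 2 genes, or 1.57%, against 0.739%. Of the 47 called genes, 14 had such a gap in the wild type, and 42 had the same sign over first and over second arrays. The exceptions were CYP71B23, CYP77A4, CYP81D8, CYP81G1 and CYP86A7, of which the last 2 are named for this after their values were seen. CYP86A7, an epidermal fatty acid hydroxylase gene, had -1.45, -3.40, -1.43 and -3.39 in the wild type and -2.55, -2.93, -2.51 and -3.07 in tt8-3.

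Of the redox partners that pass electrons to these enzymes, 1 passed the test. ATR2 (AT4G30210), 1 of the NADPH-P450 reductases, had levels of 0.51, 0.92, 0.57 and 1.03 in the wild type and 1.37, 1.48, 1.41 and 1.4 in tt8-3. It rose by 0.66 (SE 0.087, limma adjusted p = 0.0146, and 0.159 by position), with every tt8-3 array above every wild-type array. The other reductase, ATR1 (AT4G24520), had 2.56 to 2.76 against 2.54 to 2.75, a change of -0.04 (adjusted p = 0.79). The cytochrome b5 reductase CBR1 (-0.17) and the cytochrome b5 genes CB5-A (-0.21), CB5-B (0.43), CB5-C (-0.24), CB5-D (-0.05) and CB5-E (-0.02) did not pass.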

How the data were processed

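Whole-seedling RNA was measured on 8 1-colour arrays. Per the file headers, the authors' scanner files hold a processed signal, a background-subtracted linear intensity, with other 0 or 1 flags for spots well above background or uneven, from Agilent Feature Extraction 10.7.1.1 per the submitters' processing notes. The deposited value table holds log2 values. They matched scaled scanner values, after each probe's median over the arrays of a slide was subtracted, at a correlation of at least 0.9999 over 43603 probes. The build differs from the gene table (TAIR10.1), so no coordinates are given.

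Each array's processed signals were divided by their 75th percentile and put on the log2 scale. Control and outlier spots were left out and repeat spots averaged. Probes were named by transcript accession (34358 by 1 gene, 9245 by none), and the brightest probe stood for a gene. The 75th percentile was 545 to 1108 and 69.0% to 77.3% of probes were well above background. No spot was saturated. Array number and dim signals limit precision. Genes were tested with limma 3.58.1 in R 4.3.3 over 19227 genes. The method was tested on simulated data with independent noise and no slide or position effect. That test cannot show how the method deals with such effects. Arrays with the same number share a slide, and their deviations correlated at 0.28 to 0.38, so the slide pairs them. Over slide averages the deviations of the lines correlated at 0.78. The main fit has no slide term and does not use this pairing, which the fit with slide as a block does.

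Members, lists and rules were chosen with earlier results of these data known. Named are the 10 largest rises and falls among called genes, genes called under both averagings, up to 4 per list by p, the extremes of each family with at least 5 tested genes, and redox partners. Other genes are named beside these and were chosen after their values were seen.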

Additional observations from a re-analysis of the deposited data

Results flagged for a closer look

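Among 96 groups of 4 arrays, for 48 P450 genes in both lines, 3 held an array far from the other 3 by Dixon's criterion. Chance flags about 1 in 20 groups of independent values. The 4 arrays of a line were not independent, so 3 of 96 cannot be judged against that share. CYP71B36 had a level of -3.63 on wild-type array 3, against -4.36 on the nearest other wild-type array. CYP71A23 had a level of -6.37 on tt8-3 array 4, against -5.73 on the nearest. CYP96A9 had a level of -5.21 on tt8-3 array 2, against -5.56 on the nearest. None of the 3 arrays lay within the range of the other line for its gene.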

How the results depend on the processing

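With slide as a replicate block, 37 P450 genes were higher and 48 lower, and with the label number as a replicate block over 8 arrays 17 and 26, against 16 and 31; the blocks left the changes themselves as they were. The counts were 3 and 5 averaged by position, 0 and 0 with normexp (limma, 14 and 12 at an unadjusted p under 0.05), 40 and 50 with the authors' deposited values, and 10 and 21 with no filter on dim probes, where 27 of the 47 calls were kept. The deposited values are centred within each slide, so the slide difference was already removed from them. Shares over all genes are given only for the main, position and slide-block fits, so the other counts have none beside them. With slide as a block, CYP71 had 8 higher and 18 lower, CYP705 5 and 4, CYP81 5 and 5 and CYP72 3 and 0. In the same fit CYP706 had 1 higher and 3 lower, CYP86 2 and 2, CYP96 2 and 2 and CYP78 2 and 1. Leaving out 1 array or slide average gave 8 to 17 higher and 17 to 26 lower.

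The median of CYP71 was 0.18 with normexp, -0.11 with normexp and quantile normalization, -0.30 over first arrays, -0.34 with median scaling and -0.29 with quantile normalization. With normexp the medians of CYP705, CYP81 and CYP96 were 0.33, 0.13 and 0.33. Over first arrays CYP705, CYP81, CYP72 and CYP96 had -0.29, 0.18, 0.28 and -0.45. Over second arrays CYP705, CYP81, CYP706, CYP96 and CYP78 had 0.31, 0.24, -0.015, 0.51 and 0.34. With no filter CYP706, CYP86, CYP96 and CYP78 had 0.052, -0.35, -0.32 and 0.32, and with the median over probes CYP72 and CYP706 had 0.23 and -0.43. Leaving out 1 array or average gave -0.33 to -0.16 for CYP71, -0.09 to 0.11 for CYP705, -0.15 to 0.10 for CYP81, 0.0091 to 0.23 for CYP72, -0.59 to -0.12 for CYP706, -0.01 to 0.17 for CYP86, -0.23 to 0.28 for CYP96 and -0.15 to 0.04 for CYP78.

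The sign of single genes turned with normexp in CYP71A13 (0.12), CYP78A6 (0.069), CYP72A10 (0.038), CYP71A23 (0.022), CYP71A21 (0.083), CYP705A4 (0.092), CYP96A9 (0.082), CYP71A15 (0.066) and CYP735A1 (0.22), where the median of all genes was 0.12. It turned over first arrays in CYP72A10 (0.053), CYP81D8 (0.76), CYP77A4 (-0.12) and CYP705A5 (-0.093), and over second arrays in CYP78A6 (0.34), CYP71B23 (-0.041), CYP97B3 (0.041) and CYP705A4 (0.13). It also turned in CYP711A1 with another probe (-0.13), in CYP706A3 with median scaling (-0.051) and within slide 1 (-0.10), and in CYP705A5 with quantile normalization (-0.045) and with normexp before it (-0.015). With 1 array or average left out, the change was -0.36 to 0.043 in CYP78A6, -1.08 to 0.66 in CYP72A10, -0.40 to 0.0076 in CYP97B3, -0.84 to 0.94 in CYP706A3 and -0.028 to 0.36 in CYP705A5. The cause was not tested for any of these. Settings by single position and normexp with quantile normalization were chosen after seeing the data. Only 2 biological replicates per line and signals near background limit the dim genes.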
